A study of Mus musculus with 8 samples.

Results

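The T cells of mouse 4T1 tumours were the 154 cells that the deposited cell annotation names "T cells", of 654 annotated cells in all. The other annotated cells were 325 tumour cells, 109 macrophages and 66 NK cells. 4T1 is a mammary carcinoma line that grows in Balb/c mice, and the tumours were collected at day 10. Pieces were digested for 1 h with a protease of Bacillus licheniformis, and the 4 groups differed, by their labels, in the digestion: at 37C or at 4C, without inhibitor or with 2 nM actinomycin D, an inhibitor of transcription. Every group shared the same protease, red cell lysis, debris removal and dead cell removal. The warm digestions used a heated model of the mixing instrument and the cold ones an unheated model, so instrument and temperature cannot be told apart. Each group was 1 suspension made from 6 tumour pieces, taken from different mice, and was read as 2 libraries, A and B. The p-values over libraries therefore measure the spread between aliquots of 1 suspension, not between suspensions or mice.

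T cells recognise peptides through a receptor whose alpha and beta chains (Trac, Trbc1, Trbc2) signal through the CD3 chains (Cd3d, Cd3e, Cd3g, Cd247). Helper T cells carry the co-receptor CD4 and cytotoxic T cells carry CD8, built from Cd8a and Cd8b1. Regulatory T cells are mostly CD4 cells that depend on the transcription factor Foxp3, hold high levels of the interleukin-2 receptor alpha chain (Il2ra, CD25) and the inhibitory receptor Ctla4, and restrain other T cells in tumours.

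The T cells numbered 28 and 23 in the libraries at 37C without inhibitor, 11 and 10 at 37C with inhibitor, 18 and 28 at 4C without inhibitor, and 16 and 20 at 4C with inhibitor. Their median depth was 743 to 1027 unique molecules (UMIs) per cell at 37C and 309 to 400.5 at 4C, and the libraries did not overlap. The T cells of a library held 5656 to 31492 UMIs in all. The library medians averaged 849.6 ± 123 UMIs in the warm group and 359.8 ± 47.0 in the cold group (SD over 4 libraries each). The two-sided exact permutation test gave p = 0.0286, the smallest that 4 against 4 libraries allow, and 0.0571 after adjustment over the 4 measures tested this way. Depth therefore moved with temperature, and it enters every share of cells given here. No T-cell barcode was shared between libraries.

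The annotation was set beside the markers of T cells. Of the 154 cells, 136 (88.3%, exact 95% interval 82.2 to 92.9%) held at least 1 UMI of the CD3 or receptor chains. The same share was 4.31% in tumour cells and 5.50% in macrophages, whose median depths of 1359 and 1133 UMIs exceeded the 503.5 of T cells. It was 72.7% in NK cells at a median of 599 UMIs. After thinning each cell to 200 UMIs it was 70.8% in T cells, 50.0% in NK cells, 0.308% in tumour cells and 2.75% in macrophages.

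Trbc2 was seen in 93 T cells, Thy1 in 87, Trac in 73, Cd3d in 67, Cd3g in 60 and Cd3e in 52. Trbc1 did not separate the T cells from NK cells: its mean deposited value, the natural log of 1 plus counts per 10000, was 1.09 in T cells and 1.44 in NK cells. Cd3g separated them better, at 1.20 and 0.332. The NK receptor Ncr1 had 0 UMIs in T cells and was seen in 20 of 66 NK cells. Of the 11 NK markers listed, 6 were at 0 in T cells. These comparisons describe how the cells were clustered, and no test was made of them.

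**Figure D1:**
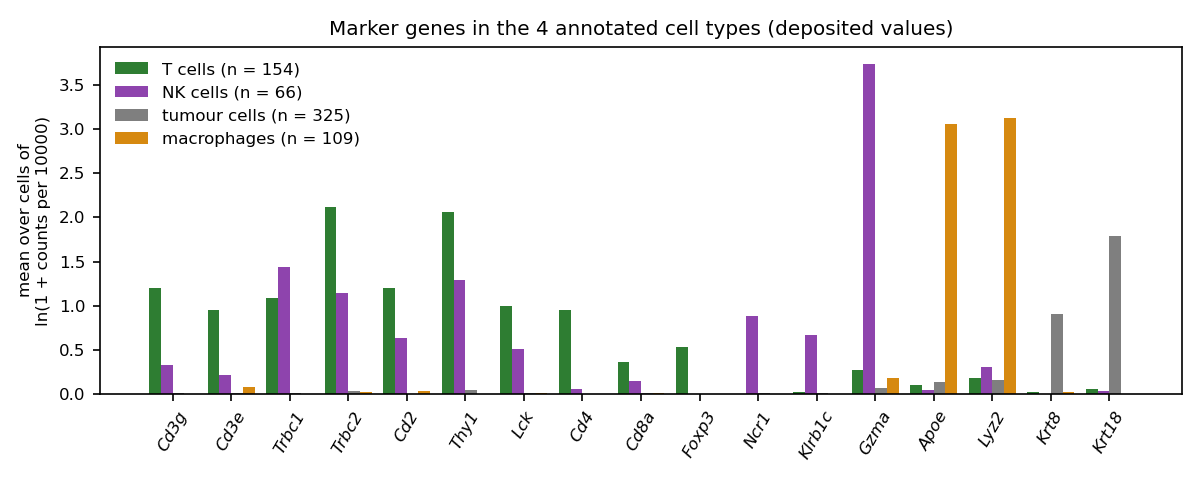
Mean deposited value per cell (natural log of 1 plus counts per 10000) of marker genes in the 4 annotated cell types; bars are means over cells. Cd3g, Cd3e, Cd4 and Foxp3 were highest in T cells, Trbc1 was higher in NK cells (1.44) than in T cells (1.09), and Ncr1 was at 0 in T cells.

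The remaining 18 cells had no CD3 or receptor UMI, at a median of 315.5 UMIs per cell. Of these, 3 held at least 10 UMIs of B cell markers, all at 37C without inhibitor, 1 held 29 UMIs of neutrophil markers, in 4C without inhibitor B, and 1 held 11 UMIs of dendritic cell markers, 8 of them of Ccr7, at 37C without inhibitor. B cell markers took 0.0184 to 0.301% of T-cell UMIs in the libraries at 37C and 0.0 to 0.0207% at 4C, and 6 of the 7 listed were detected. Most of the cells thus held a CD3 or receptor UMI, but so did most NK cells. The cell types were clustered on expression, so these markers are not a separate check of the label. Calls lost in the 136 cells with a CD3 or receptor UMI are named with the comparison they belong to.

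Helper, cytotoxic and regulatory UMIs were examined cell by cell. A Cd4 UMI was seen in 45 T cells, a Cd8a or Cd8b1 UMI in 23, and both in 2. The other 88 cells had neither, at a median depth of 398 UMIs against 801 in the 43 cells with Cd4 alone and 738 in the 21 with Cd8 alone. At this depth a missing co-receptor UMI does not show a missing co-receptor. A UMI of the gamma-delta receptor constant genes Trdc or Tcrg-C was seen in 17 cells, of which 7 also held Cd4 or Cd8 UMIs.

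The background of these shares was low. Cd4 was seen in 29.2% of T cells (22.2 to 37.1%) and in 0 of 325 tumour cells, which allows a share of up to 0.923%, and in 0 of 109 macrophages, up to 2.75%. Cd8a or Cd8b1 was seen in 14.9% of T cells (9.71 to 21.6%), 0.308% of tumour cells, 1.83% of macrophages and 6.06% of NK cells. Foxp3 was seen in 17.5% of T cells (11.9 to 24.5%) and in 0 of the tumour cells, macrophages and NK cells. Intervals are exact (Clopper-Pearson, 95%), limits beside a count of 0 are 3 counts of the total, and both cover counting error only.

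The 27 cells with a Foxp3 UMI had a median of 847 UMIs; 9 of them also held Cd4, 2 held Cd8 and 16 held neither. Summed over these 27 cells, the costimulatory receptors of regulatory T cells stood at 3652 CPM (UMIs scaled to a total of 1000000) for Tnfrsf9 (4-1BB), 1972 for Tnfrsf4 (OX40) and 1789 for Tnfrsf18 (GITR). The transcription factor Ikzf2 (Helios) stood at 1424 CPM, the folate receptor family gene Izumo1r at 1168 and the granule protease Gzmb at 1497, the last in 14 of the 27 cells. In the 99 cells without Foxp3, Il2ra or Ctla4 UMIs, Tnfrsf9 stood at 1281, Tnfrsf4 at 536, Ikzf2 at 156 and Izumo1r at 52.0 CPM. In the 21 cells with Cd8 and no Cd4 UMI, the cytotoxic granule gene Nkg7 stood at 2640 CPM, Gzmb at 1943 and the chemokine Ccl5 at 1320. In the 43 cells with Cd4 and no Cd8 UMI they stood at 665, 380 and 0.0 CPM. These levels come from cells pooled over libraries and are a description. Temperature differed between the classes: 21 of the 27 Foxp3 cells were at 37C and 69 of the 99 others at 4C. Within 37C, Tnfrsf9 stood at 3978 CPM in the 21 Foxp3 cells and 1963 in the 30 cells without these UMIs, Tnfrsf4 at 2158 and 628, and Ikzf2 at 1566 and 39.3. In the same cells Tnfrsf18 stood at 1862 and 510, Izumo1r at 1185 and 78.5, and Gzmb at 1481 and 393. Gzmb was close at 4C, at 1597 CPM in the 6 Foxp3 cells (6 UMIs) and 1362 in the 69 others.

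Across the libraries, the share of T cells with a Foxp3, Il2ra or Ctla4 UMI separated 37C from 4C. The shares were 57.1 and 52.2% at 37C without inhibitor, 81.8 and 50.0% at 37C with inhibitor, 16.7 and 14.3% at 4C without inhibitor, and 18.8 and 15.0% at 4C with inhibitor. Each library at 37C lay above each at 4C. After thinning to 200 UMIs per cell the shares were 17.4 to 63.6% at 37C and 5.56 to 15.0% at 4C, with means of 39.2 ± 19.0% and 10.9 ± 4.00% (SD over 4 libraries). The groups still did not overlap (exact permutation p = 0.0286, adjusted 0.0571, with aliquots taken as independent). Their nearest libraries lay at 17.4% (37C) and 15.0% (4C), each from few T cells. The thinning was a random draw that was not repeated, so whether the separation holds over draws was not tested. Thinned to 100 UMIs the groups overlapped, at 13.4 ± 6.25% and 5.27 ± 5.26% (exact permutation p = 0.114). Foxp3 alone was seen in 29.2% of T cells at 37C and 7.32% at 4C, and after thinning to 200 UMIs in 16.7% and 3.66%. The cells with 2 or 3 of these genes numbered 26, all but 1 of them at 37C. The same UMIs were seen after thinning in 0.615% of tumour cells, 1.52% of NK cells and 0 of 109 macrophages, which allows up to 2.75%.

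The thinned Cd8 share averaged 7.74 ± 7.65% (37C) and 9.12 ± 5.68% (4C; SD over 4 libraries; exact permutation p = 0.886, adjusted 0.886), and 13.5 and 13.1% before. The Cd4 share was 15.2 ± 5.74% and 12.7 ± 5.38% after thinning (exact permutation p = 0.6, adjusted 0.8), and 39.5 and 23.3% before. Libraries at the 2 temperatures overlapped in both thinned shares. No Cd8 UMI was seen in the 11 T cells of 37C with inhibitor A, which allows a share of cells with such a UMI of up to 27.3%.

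**Figure D2:**
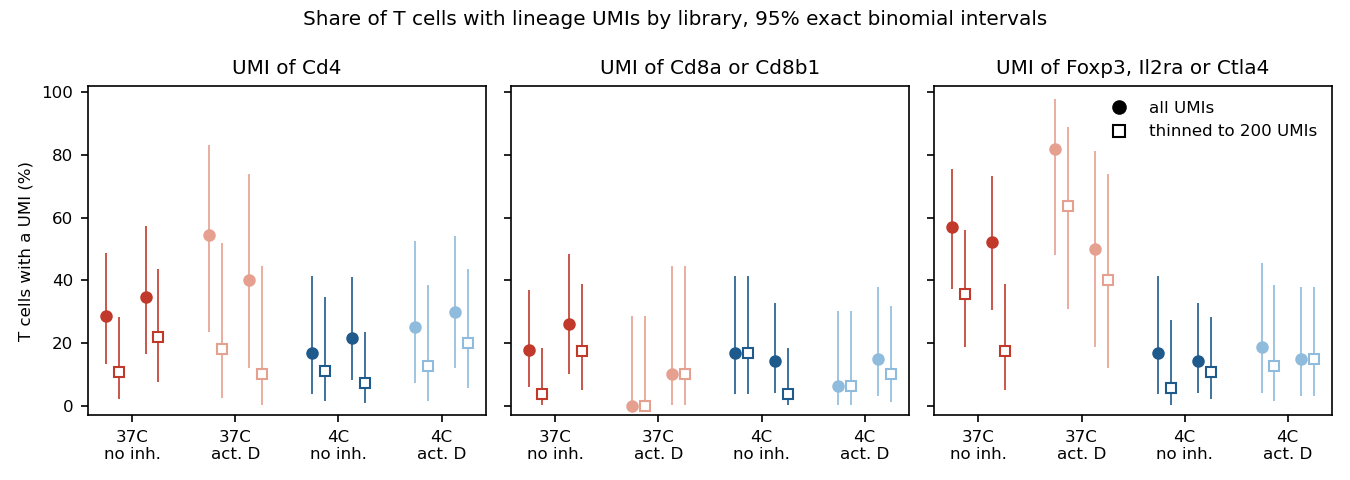
Percent of T cells with a UMI of the named genes in each of the 8 libraries (left to right within a group: aliquots A and B), with all UMIs (filled circles) and after thinning to 200 UMIs per cell (open squares); bars are 95% exact binomial intervals. The regulatory share lay at 50.0 to 81.8% at 37C and 14.3 to 18.8% at 4C with all UMIs, while the thinned Cd4 and Cd8 shares overlapped between temperatures.

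Raw counts summed over the T cells of each library were tested with edgeR's quasi-likelihood test, and a gene was called at an adjusted p under 0.05. Between 37C and 4C, averaged over inhibitor, 22 of 230 genes tested were called (9.57%), 16 higher and 6 lower at 37C. The T cells at 37C held more RNA of the activation and regulatory receptors Tnfrsf9, Il2ra and Ctla4, of the adhesion receptor Cd2, and of the MHC class I genes H2-D1 and B2m. They held less of Ms4a4b, Mcl1, Ly6c2 and Selplg. In bulk sums of this kind, fewer cells with a transcript and less of it per cell cannot be told apart.

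Tnfrsf9 (chr4:150914562-150946102, GRCm38) encodes the costimulatory receptor 4-1BB, which activated and regulatory T cells carry. It stood at 2985 and 1938 CPM at 37C without inhibitor, 3007 and 3898 with inhibitor, 1382 and 621 at 4C without inhibitor, and 1238 and 621 with inhibitor. No cold library reached the lowest warm one. The log2 fold change was 1.63 ± 0.32 (SE; edgeR adjusted p = 0.0168). Tnfrsf9 was seen in 42 of 72 T cells at 37C and in 14 of 82 at 4C.

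Il2ra (chr2:11642807-11693193) stood at 1365, 742, 1289 and 632 CPM in the 4 libraries at 37C and at 0.0, 233, 530 and 103 at 4C, without overlap. Its log2 fold change was 2.47 ± 0.59 (edgeR adjusted p = 0.0169). With 1 library left out it lay between 1.95 and 4.50, the highest without 4C no inhibitor B, where 0 UMIs were left at 4C without inhibitor. The call was lost without 37C no inhibitor A, 37C with inhibitor A or 4C with inhibitor B (edgeR adjusted p = 0.107 to 0.11). Ctla4 (chr1:60887000-60915832), which removes costimulatory ligands from antigen-presenting cells, stood at 1079.6, 825, 429.5 and 1475 CPM at 37C and at 86.4, 466, 0.0 and 0.0 at 4C. One library at 4C lay above the lowest at 37C. Its fitted log2 fold change of 4.19 (edgeR adjusted p = 0.0169) depends on the prior count, because Ctla4 had 0 UMIs at 4C with inhibitor. The ratio of the summed levels was 5.23, from 75 UMIs at 37C and 7 at 4C, and with inhibitor Ctla4 was at least 4.16-fold higher at 37C, by a floor of 3 counts over the group. Ctla4 was seen in 27 of 72 cells at 37C and in 2 of 82 at 4C.

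The regulatory list summed to 0.841 to 1.31% of T-cell UMIs at 37C and 0.414 to 0.743% at 4C, and without Tnfrsf9, Il2ra and Ctla4 to 0.491 to 0.706% and 0.341 to 0.566%, where the libraries overlapped. Of its genes, 17 had a T-cell UMI, 7 were tested and 3 rose (Tnfrsf9, Il2ra, Ctla4). Over all genes tested, 16 of 230 rose. The median log2 fold change of the 7 was 1.02, against 0.04 over all 230 genes. That median includes the 3 called genes and is the value of Foxp3, which was not called. Tnfrsf9, Il2ra and Ctla4 are not particular to regulatory cells, since activated T cells also carry them. The lineage factor Foxp3 was not called: it had 9, 6, 18 and 7 UMIs at 37C and 2, 0, 8 and 2 at 4C, with a log2 difference of 1.02 ± 0.87 (edgeR adjusted p = 0.536). Tnfrsf4 and Tnfrsf18 were not called either, at 0.33 ± 0.42 and 0.32 ± 0.31.

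Of the 13 receptor and CD3 genes with a T-cell UMI, 8 were tested and 1 rose, the adhesion receptor Cd2. Over all genes tested 16 of 230 rose. The median of the 8 was 0.07. Cd2 stood at 1334, 1072, 2332 and 2107 CPM at 37C and at 691, 931, 530 and 207 at 4C, without overlap, with a log2 fold change of 1.63 ± 0.34 (edgeR adjusted p = 0.0168). Cd3g (-0.15 ± 0.30), Trac (0.04 ± 0.34), Cd3d (0.10 ± 0.28), Cd3e (0.16 ± 0.38), Trbc2 (0.24 ± 0.25) and Thy1 (0.00 ± 0.29) were not called. Trbc1 was not called either, at -0.88 ± 0.41 (edgeR adjusted p = 0.202). Neither Cd4 (0.26 ± 0.37, edgeR adjusted p = 0.681) nor the helper receptor Icos (1.04 ± 0.35, edgeR adjusted p = 0.0789) was called.

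Of the 20 cytotoxic genes with a UMI, 4 were tested and 1 rose, Srgn, the core protein of granule proteoglycans (0.95 ± 0.24). Nkg7 and Gzmb, at -0.73 ± 0.48 and -0.78 ± 0.46, were not called. In the MHC class I list 2 of 6 genes tested rose: H2-D1 by 0.75 ± 0.18 and B2m, its light chain, by 0.49 ± 0.14. B2m depended on the cells kept: in the 54 T cells without any macrophage or tumour marker UMI its difference was -0.82 (edgeR adjusted p = 0.362, 21 genes tested). That subset left 10 and 2 T cells at 37C without inhibitor and 1 and 1 with inhibitor. Its rule also removed cells with the listed tumour markers S100a6 or Ctla2a, seen in 56 and 29 T cells. So few warm cells cannot decide whether B2m moved with temperature. The hypoxia factor Hif1a rose by 1.67 ± 0.35, the stem cell antigen Ly6a by 2.20 ± 0.51, the signal transducer Stat3 by 1.32 ± 0.40, Serinc3 by 1.13 ± 0.32 and Hnrnpa2b1 by 1.55 ± 0.47. In the cytoskeleton list, 2 of 12 genes rose, Actb (0.57 ± 0.16) and Rac2 (0.99 ± 0.28). Over all genes tested 16 of 230 rose, and no list was tested against that share.

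The genes lower at 37C included Mcl1, a short-lived survival protein of the BCL2 family, which stood at 222, 660, 61.4 and 105 CPM at 37C and at 691, 1087, 884 and 1552 at 4C. Its groups did not overlap, and it fell by 2.48 on the log2 scale. Ms4a4b, a membrane protein of T cells, fell by 1.14, and Ly6c2, a marker of memory CD8 cells, by 2.73. Ly6c2 rested on few cells: its 46 UMIs were in 13 T cells, with 31 of them in 5 cells. It was seen in 5 of 72 T cells at 37C and in 8 of 82 at 4C. Selplg, the ligand that selectins bind, fell by 1.26. Of 59 ribosomal protein genes tested, Rps3 and Rps19 fell, Rpl7a rose, and the median was -0.17. Over all 230 genes tested 6 fell and 16 rose. Ribosomal genes, Ly6a and Ly6c2, and the class I genes have close copies, so their counts are uncertain where the authors' counting could split reads.

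**Figure D3:**
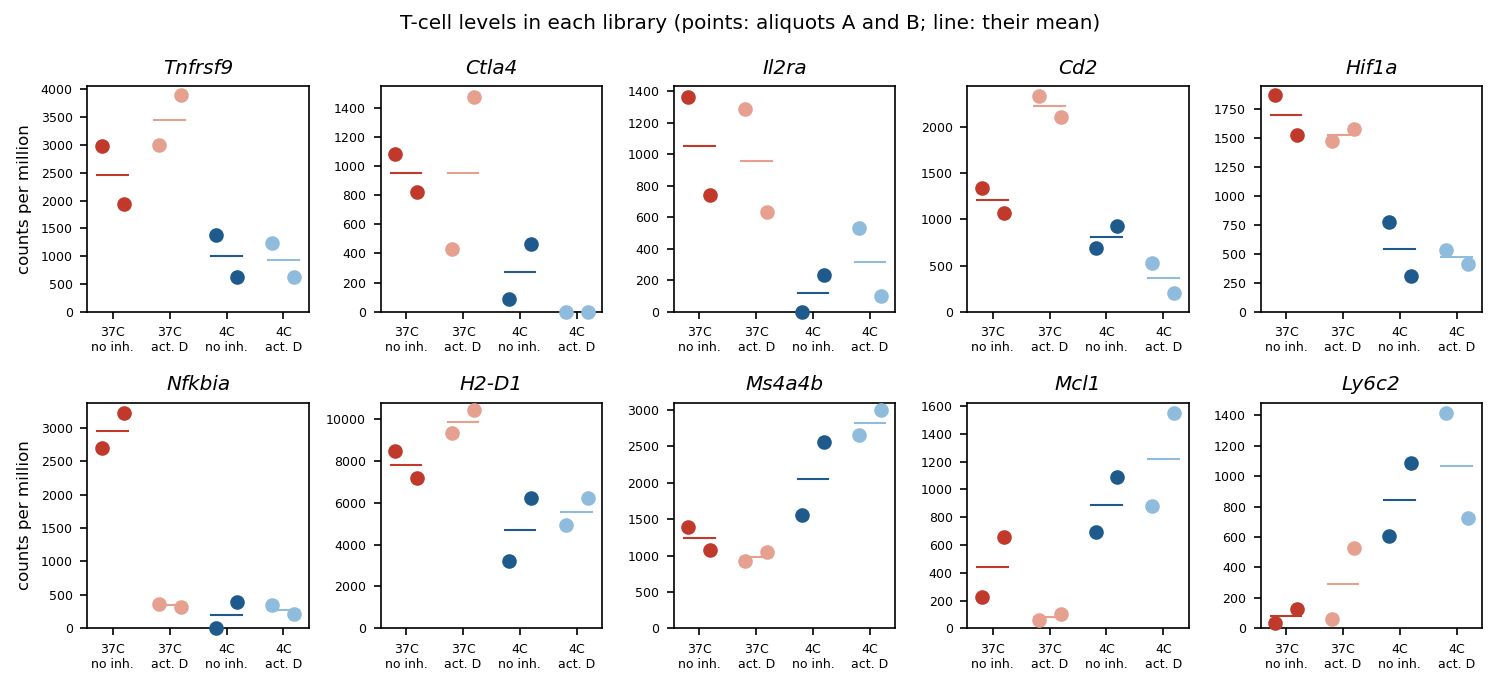
CPM of 10 genes in T cells of each library; points are aliquots A and B and the line is their mean. Tnfrsf9, Il2ra, Cd2, Hif1a and H2-D1 were higher in every library at 37C than in any at 4C, Ms4a4b, Mcl1 and Ly6c2 were lower, and Nfkbia was high in the 2 libraries at 37C without inhibitor alone (2699 and 3217).

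For 14 of the 22 genes the 4 libraries at 37C did not overlap the 4 at 4C, and over all 230 genes tested this held for 34 (14.8%). The sign was the same without and with inhibitor for all 22, and for 162 of the 230 (70.4%). Since the 22 were called on the average of these differences, both counts follow in part from the choice of genes. The count of calls rested on single libraries. It fell to 0 without 4C with inhibitor B, 7 without 4C with inhibitor A, 8 without 37C with inhibitor A, 10 without 37C no inhibitor A and 11 without 37C with inhibitor B. With the aliquots of a suspension summed, so that 4 suspensions were compared, 14 of 408 genes were called, all among the 22. That fit had no replicate suspension in any group. Its spread came from the departure from additive effects of temperature and inhibitor. In the cells with a CD3 or receptor UMI 13 of 200 were called, also all among the 22. The 9 not called there were Rac2, Rpl7a, Rps19, Hnrnpa2b1, Selplg, B2m (0.47), Actb, Stat3 and Serinc3 (edgeR adjusted p = 0.0518 to 0.123), all with the same sign. DESeq2's Wald test called 5. After thinning to 200 UMIs per cell 48 genes were left to test and 12 were called, with all 9 of the 22 that could be tested among them. Of the alternative fits that tested a gene, Tnfrsf9 passed in 24 of 25, Cd2 and Hif1a in 19 of 24 and H2-D1 in 19 of 26. Those that passed in the fewest were Stat3 (3 of 24), Hnrnpa2b1 (3 of 23), Rps19 (6 of 26), Rpl7a (6 of 24), B2m (7 of 26), Selplg (8 of 24), Rac2 (9 of 24), Serinc3 (9 of 25) and Actb (11 of 26). Without 4C no inhibitor B Rpl7a moved from 1.29 to 2.07, and without 4C with inhibitor B Stat3 moved from 1.32 to 2.03 and was not called.

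The temperature difference was also fitted apart. Without inhibitor 1 of 230 genes was called (0.435%), Nfkbia, at 3.78 ± 0.58 (edgeR adjusted p = 0.00155). The Nfkbia call held with each library left out, but its value rested on 5 UMIs at 4C. It was 2.93 without 4C no inhibitor A and 8.53 without 4C no inhibitor B, where 0 UMIs were left at 4C and the fitted value depends on the prior count. With inhibitor 1 of 230 genes was called (0.435%), Cd2, at 2.73 ± 0.53 (edgeR adjusted p = 0.0219). The test of the difference between these 2 differences called 0 of 230 genes with edgeR (0.0%), with 12 at an unadjusted p under 0.05, and DESeq2's Wald test also called 0. The smallest edgeR adjusted p was 0.193, for Tnfrsf18 (2.35 ± 0.61) and the calcium-binding gene S100a4 (-2.67 ± 0.71). Genes called in 1 fit and not in the other are therefore not shown to differ. Next by p, without passing, came S100a4 (2.10 ± 0.51) and Ly6a (3.16 ± 0.79) upward and Ly6c2 (-3.44 ± 1.10), Rps19 (-0.64 ± 0.24) and Rps3 (-0.56 ± 0.24) downward without inhibitor. With inhibitor they were Tnfrsf9 (1.98 ± 0.49) upward, beside Ctla4, and Mcl1 (-3.87 ± 0.94), Tmsb4x (-0.74 ± 0.19) and Ms4a4b (-1.52 ± 0.39) downward. For the interaction they were Rps23 (2.97 ± 0.89), Cd2 (2.20 ± 0.70), Tmsb4x (-0.83 ± 0.26) and Nfkbia (-3.37 ± 1.18). The Cd2 call was lost without either library at 37C with inhibitor, and without either at 4C with inhibitor.

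**Figure D4:**
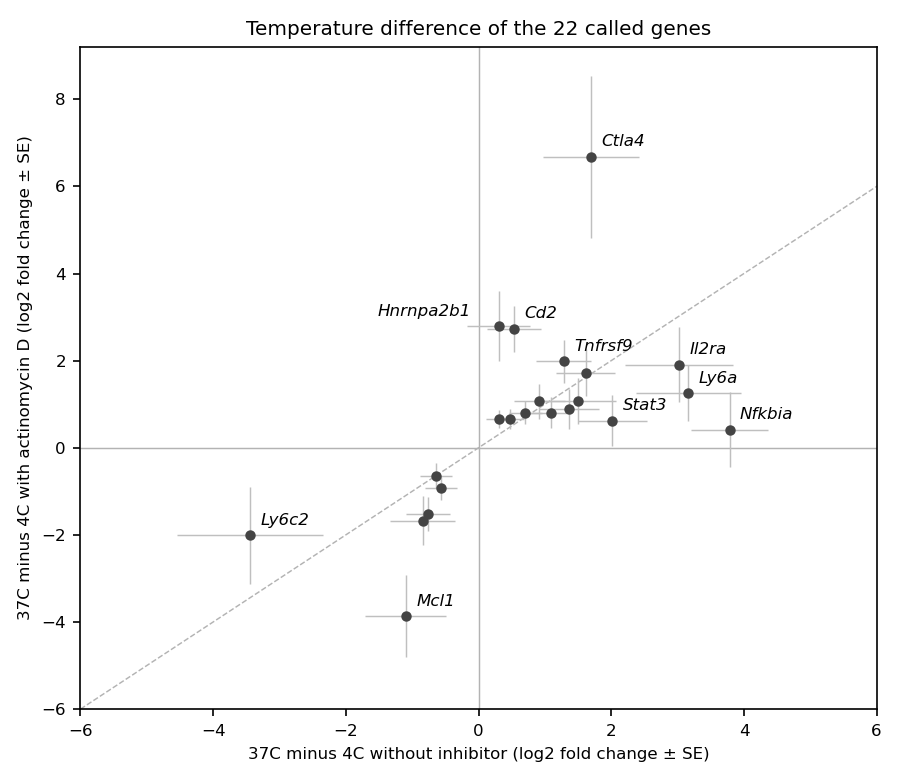
Log2 fold change between 37C and 4C in T cells without inhibitor (x axis) and with actinomycin D (y axis) for the 22 called genes, with standard errors; the dashed line marks equal values. All 22 had the same sign on both axes, and Nfkbia had 3.78 without and 0.41 with inhibitor.

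Actinomycin D at 37C went with lower T-cell levels of a feedback gene of NF-kB signalling and of a chemokine receptor. Of 230 genes, 2 were called (0.87%), both lower with inhibitor: Nfkbia and Ccr7. Nfkbia (chr12:55489410-55492647) encodes the inhibitor of NF-kB, which NF-kB itself induces. It had 85 and 78 UMIs without inhibitor and 6 and 3 with it at 37C, and 0, 5, 2 and 2 in the libraries at 4C. It fell by 3.11 ± 0.52 on the log2 scale (edgeR adjusted p = 0.00454). After thinning to 200 UMIs per cell the difference was -1.61 (edgeR adjusted p = 0.62), and without 37C with inhibitor A the adjusted p was 0.0684. With genes filtered again it was 0.207 without that library and 0.0526 without 37C with inhibitor B. In tumour cells set beside T cells, the temperature difference of Nfkbia was not shown to differ (1.76 ± 0.64, edgeR adjusted p = 0.363).

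The bases just before the start of Nfkbia are shown because this gene was called in this comparison; capitals mark a match to the NF-kB motif, spelled GGGA, any base, TT, any base and CC, searched on both strands.
Nfkbia, chr12:55492657-55492686, minus strand, GRCm38.p6 (RefSeq): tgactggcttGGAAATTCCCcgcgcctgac
The match lies 29 to 20 bases before the start. Of 32851 promoters, 0.980% held such a match in the 250 bases before the start. Of the other genes searched, Il2ra, Ctla4, Junb, Csf2 and Tnfaip3 held no match in this window, and Tnfrsf9 held 1 in 1 of its 2 listed promoters. A match is a description of the letters, and binding was not measured.

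Ccr7, the receptor that guides T cells and dendritic cells to lymph nodes, had 34 and 34 UMIs at 37C without inhibitor, 0 and 0 with inhibitor, and 0, 2, 0 and 0 at 4C. It was at least 10.5-fold lower with inhibitor, by a floor of 3 counts over the group (edgeR adjusted p = 0.0359). The call was lost in cells with a CD3 or receptor UMI (edgeR adjusted p = 0.0763). With the genes of the full fit kept it was also lost without any 1 of the 4 libraries at 37C (edgeR adjusted p = 0.0531 to 0.593). With genes filtered again it held without 37C no inhibitor A (edgeR adjusted p = 0.0198) and was lost without each of the other 3 (0.0526 to 0.372). These UMIs came from few cells: 5 cells with at least 8 Ccr7 UMIs held 65 of the 70, 2 in library A and 3 in library B. Of the 5, 4 held CD3 or receptor UMIs and 3 held Cd4, while 1 held neither. Dendritic cells also carry Ccr7, and the other 9 dendritic markers, of which 7 were detected, took 0.0222 and 0.0948% of T-cell UMIs in these 2 libraries and 0.0 to 0.0632% in the other 6. Within the 5 cells they had 4 UMIs in all, 3 of them in the cell without CD3 or receptor UMIs. B cell markers took 0.073 and 0.301% of T-cell UMIs in the same 2 libraries and 0.0 to 0.0316% in the other 6. Their part in the Ccr7 result was not tested.

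The other early-response genes tested did not pass, and most of those listed were below the filter. Of the immediate-early list 2 of 27 genes with a T-cell UMI were tested, and of the NF-kB list 3 of 20, with Nfkbia. All of these had a negative difference and an unadjusted p under 0.05 by edgeR's test. Junb, an AP-1 subunit, had 39 and 38 UMIs at 37C without inhibitor, 4 and 2 with it, and 1, 8, 0 and 3 at 4C, with a log2 difference of -2.60 ± 0.64 (edgeR adjusted p = 0.0535). Id2, an inhibitor of E proteins, gave -2.30 ± 0.56 (edgeR adjusted p = 0.0535). Tnfaip3, a brake on NF-kB, had a difference of -2.09 ± 0.66 (edgeR adjusted p = 0.206), and Btg2 of -2.04 ± 0.67 (edgeR adjusted p = 0.22). The summed NF-kB list took 1.07 and 1.12% of T-cell UMIs at 37C without inhibitor and 0.141 to 0.354% in the other 6 libraries, and without Nfkbia 0.797 and 0.800% against 0.106 to 0.354%. The summed immediate-early list took 0.997 and 0.916% there and 0.227 to 0.458% elsewhere. Csf2 (GM-CSF) had 16 and 41 UMIs at 37C without inhibitor and 0 and 0 with it, and the chemokine Ccl4 had 26 and 8 against 0 and 0. Ccl4 gave an edgeR adjusted p of 0.559 and Csf2 was below the filter. The Csf2 UMIs came from few cells: over all T cells, 5 cells held 54 of the 58, and 30 were in 1 cell of 37C no inhibitor B. The libraries at 37C held 28 and 23 T cells without inhibitor and 11 and 10 with it. Higher with inhibitor at 37C by the smallest p, without passing, were Cd3g (1.26 ± 0.40), Tnfrsf18 (1.09 ± 0.37) and Cd2 (0.82 ± 0.36). At 4C actinomycin D gave 0 calls of 230 with edgeR (0.0%), with 14 at an unadjusted p under 0.05, and 0 with DESeq2's Wald test. The smallest p there belonged to S100a4 (2.11 ± 0.58), Tmsb4x (0.58 ± 0.19) and Ly6a (2.32 ± 0.96) upward, and to Hnrnpa2b1 (-2.45 ± 0.83), Rps23 (-2.12 ± 0.76) and Tnfrsf18 (-1.26 ± 0.49) downward, none of which passed.

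Cytotoxic features were compared between T cells with and without a Cd8a or Cd8b1 UMI within the same library, in the 5 libraries with at least 2 cells of each. Of 82 genes, 8 were called (9.76%), 1 higher and 7 lower in the cells with Cd8 UMIs. Nkg7, a granule membrane protein of cytotoxic cells, was higher in 5 of 5 libraries, at 2634 ± 668 against 633 ± 322 CPM (SD, n = 5), with a log2 fold change of 1.88 ± 0.29 (edgeR adjusted p = 2.65e-05). B2m was lower in 5 of 5, at 6010 ± 965 against 11375 ± 1788 CPM, and fell by 1.19 ± 0.19. H2-D1 fell by 1.15 ± 0.23 and H2-K1 by 1.31 ± 0.37, so all 3 class I genes tested were lower.

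The tetraspanin Cd53 fell by 1.35 and the intermediate filament Vim by 1.13, both lower in 5 of 5 libraries. Crip1 fell by 1.85 and the interferon-induced Ifi27l2a by 1.57, each lower in 4 of 5; without 4C with inhibitor B the Ifi27l2a value was -2.54. Of the 23 cells with Cd8 UMIs, 3 exceeded 4000 UMIs, at 4264, 4146 and 4534. The class sums they belonged to were 8489 UMIs (37C no inhibitor A), 4951 (4C no inhibitor A) and 7369 (37C no inhibitor B). Each of these sums thus came mostly from 1 cell. The 3 cells held 22, 15 and 6 of the 118 Nkg7 UMIs of all T cells. Without cells over 4000 UMIs 2 of 56 genes were called, B2m and H2-D1. Nkg7 was not among the genes tested, so its difference without these cells was not tested. The count of calls was 2 without 37C no inhibitor B, 3 without 37C no inhibitor A and 3 without 4C no inhibitor B, 16 without 4C no inhibitor A and 13 without 4C with inhibitor B. Nkg7 and B2m were called in all 5 of these fits.

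**Figure D5:**
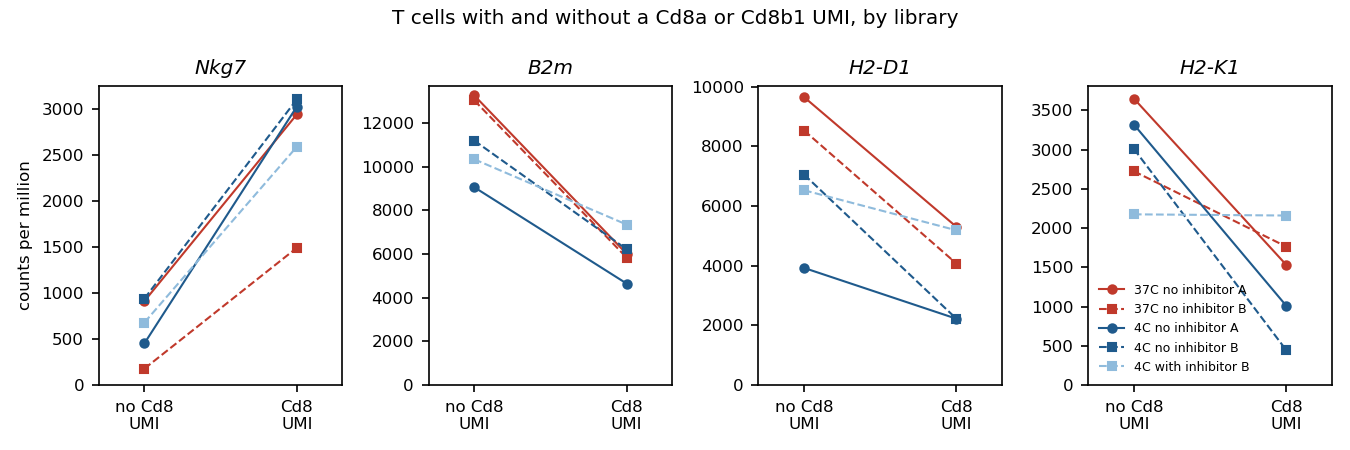
CPM of Nkg7, B2m, H2-D1 and H2-K1 in T cells without and with a Cd8a or Cd8b1 UMI; lines join the 2 classes of 1 library, for 5 libraries. Nkg7 was higher and the 3 class I genes were lower in the cells with Cd8 UMIs in all 5 libraries.

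Between cells with and without a Foxp3, Il2ra or Ctla4 UMI, 1 of 73 genes was called (1.37%) over 8 libraries. Vim was higher in 8 of 8 libraries, at 3651 ± 1690 against 1242 ± 446 CPM (SD, n = 8), by 1.55 ± 0.30 (edgeR adjusted p = 0.00266). Tnfrsf9 was higher in 6 of 8 and did not pass the test (0.97 ± 0.40, edgeR adjusted p = 0.413). The cells with these UMIs were deeper, at a median of 847 against 410 UMIs, and after thinning to 200 UMIs 7 genes were left to test, Vim not among them, and edgeR called 0, with 1 at an unadjusted p under 0.05. Among the next by p, without passing, were S100a10 (0.86 ± 0.30) and H2-K1 (0.72 ± 0.29) upward and Rps27 (-0.62 ± 0.30) and Rpl13 (-0.61 ± 0.31) downward. With Foxp3 alone as the class Vim gave 1.12 (edgeR adjusted p = 0.119).

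The temperature difference in T cells was set against that in tumour cells of the same libraries. Of 522 genes, 2 were called (0.383%). Ly6a stood at 1425 ± 706 CPM at 37C and 382 ± 383 at 4C in T cells, and at 612 ± 212 and 1102 ± 356 in tumour cells (SD, n = 4 each), so the differences had opposite signs. The test of this difference gave 2.81 ± 0.49 on the log2 scale (edgeR adjusted p = 3.98e-06) and passed with each library left out in turn. Spp1, which encodes the secreted protein osteopontin, gave 1.91 ± 0.50 (edgeR adjusted p = 0.0369), from 461 ± 414 and 230 ± 185 CPM in T cells (46 and 10 UMIs) and 2187 ± 353 and 3853 ± 1067 CPM in tumour cells, at 37C and 4C. The 56 Spp1 UMIs of T cells were in 18 cells, with 40 of them in 5 cells, and 37C with inhibitor B had 0. The 13 other tumour cell markers, of which 7 were detected, took 0.141 to 0.221% of T-cell UMIs at 37C and 0.0518 to 0.228% at 4C, and their part in this result was not tested. Most of these UMIs were of S100a6 (148, in 56 T cells) and Ctla2a (48, in 29). The epithelial genes Krt8 and Epcam were each seen in 1 T cell and Krt18 in 3, and Krt19, Krt7 and Cdh1 were at 0. The Spp1 call was lost without 37C no inhibitor A, 37C with inhibitor A or either library at 4C with inhibitor (edgeR adjusted p = 0.236 to 0.92). Against NK cells edgeR called 0 of 201 genes (0.0%), with 20 at an unadjusted p under 0.05; DESeq2's Wald test was not run there. The smallest p belonged to the chemokine receptor Ccr2, followed by Aldoa (1.25 ± 0.48) and Coro1a (1.51 ± 0.60) upward in T relative to NK cells, and to the granzyme Gzma (-1.73 ± 0.57), Btg2 (-2.20 ± 0.78) and Shisa5 (-1.33 ± 0.50) downward. Against tumour cells Trac (4.02 ± 1.14), Rps3 (-0.61 ± 0.21), Ly6c2 (-3.95 ± 1.47) and Dynll1 (-1.60 ± 0.60) came next and did not pass.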

How the data were processed

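Single-cell 3' RNA libraries (SureCell, ddSEQ) of 8 aliquots were used. Raw UMI counts per gene and cell were deposited by the authors; the submitters' processing notes list STAR 2.7.1a, UMI-tools, Seurat, featureCounts 1.6.0 and SAMtools, with the build GRCm38. Tool settings, cell filters and doublet removal: not given in the sources used here. A table of natural log values deposited by the authors holds the log of 1 plus counts per 10000 per cell; 99.9836% of T-cell values were proportional to the raw counts within 0.001. Of 17580 gene identifiers 17520 received a symbol, 12505 with the same version.

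Counts of T cells were summed per library, filtered with filterByExpr, scaled by TMM and tested with edgeR 4.0.16 (quasi-likelihood test, Benjamini-Hochberg adjustment, adjusted p under 0.05); CPM are per library. The classes were compared within libraries with at least 2 cells of each class. Thinned cells kept 200 UMIs from a random draw that was not repeated. None of the 154 was shallower. Members and gene lists were chosen with earlier results of these data known. Named genes were the largest called changes, the 3 smallest p in each direction where fewer than 3 were called, and list members. Alternatives used DESeq2 1.42.0, other filters, the replicate letter, thinning, summed aliquots, other cells and leaving out each library; those on CD3 or receptor UMIs, on cells over 4000 UMIs and on refiltered genes were chosen after seeing the data.

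The fits were tested on simulated data, 10 draws each. The simulated libraries were independent and every gene had the same spread setting. UMIs gathered in single cells and aliquots sharing a suspension were not simulated, so the rates hold for that setting only. With no changed gene, 0.0416% of the genes tested were called for the temperature comparison. With 200 changed genes among the 1500 most abundant, 82.0% of 4-fold changes tested were called for temperature, 96.0% for the CD8 classes and 37.55% for T against tumour cells. Of 2-fold changes 33.7%, 32.2% and 4.075% were called, and of unchanged genes 0.958%, 0.553% and 0.104%. For the regulatory classes 51.3% of 2-fold changes were called. With the 200 among the 600 most abundant, 2.93%, 5.07% and 8.15% of unchanged genes were called for temperature, the CD8 classes and the regulatory classes, and the median of the unchanged genes shifted by 0.21 to 0.30 on the log2 scale. The first simulation used 600, and 1500 was added after seeing those calls. A gene that the naming rule selects is not reported here.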

Additional observations from a re-analysis of the deposited data

Results flagged for a closer look

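The Actb level of T cells was 10351 CPM in 37C no inhibitor B, while the other 3 libraries at 37C lay between 14432 and 15218 CPM, so 1 library stood apart by Dixon's test. It was the only such case in 52 groups of 4 tested, and chance gives about 1 in 20.

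The temperature difference of Ly6a in T cells differed from that in tumour cells by 2.81 on the log2 scale, and that of Spp1 by 1.91, both by edgeR's test of the difference itself.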

How the results depend on the processing

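The correlations of same-letter deviations were 0.04, 0.14, -0.10, 0.01, 0.09 and 0.24, not all over 0.1, and the main fits left the letter out. Whether libraries of the same letter share a batch was not tested further. With the letter as a replicate block, 25 genes were called for temperature, 9 without inhibitor, 11 with inhibitor and 4 for inhibitor at 37C. The main fits called 22, 1, 1 and 2 in the same order. The block gave 0 calls for inhibitor at 4C and for the interaction.

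For temperature, 5 genes were called with DESeq2's Wald test, 14 with no filter, 12 with the stricter filter, 12 after thinning, 14 with aliquots summed, 13 in cells with a CD3 or receptor UMI and 1 in cells without macrophage or tumour marker UMIs, where 21 genes were tested. Without inhibitor the counts were 15 with no filter, 8 with the stricter filter, 0 without marker UMIs (0 at an unadjusted p under 0.05), 2 with a CD3 or receptor UMI and 15 without cells over 4000 UMIs. With inhibitor they were 0 with DESeq2's Wald test, 2 with no filter, 6 with the stricter filter, 0 after thinning and 7 without cells over 4000 UMIs. For inhibitor at 37C they were 1, 10, 11 and 0 in the order Wald test, no filter, stricter filter and thinning, and 1 each without marker UMIs and with a CD3 or receptor UMI.

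For the CD8 classes the counts were 5 with the Wald test, 14 with no filter, 1 after thinning, 2 without cells over 4000 UMIs and 3 against Cd4 cells. For the regulatory classes they were 0 with no filter, 0 after thinning, 3 with aliquots summed and 0 with Foxp3 alone. Against tumour cells no filter gave 1. B2m reversed to -0.82 in cells without marker UMIs, where a library at 37C held 1 to 10 cells. The Cd8 share difference reversed to 0.435 percentage points with all UMIs.

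Leaving out 1 library, with the genes of the full fit and with genes filtered again, gave 0 to 21 and 2 to 24 calls for temperature, 1 to 8 and 1 to 12 without inhibitor, 0 to 14 and 0 to 18 with inhibitor, 0 to 4 and 0 to 13 for inhibitor at 37C, 0 to 0 and 0 to 1 at 4C, and 0 to 0 and 0 to 2 for the interaction. It gave 2 to 16 for the CD8 classes, 1 to 2 for the regulatory classes, 1 to 4 against tumour cells, and a Cd8 share difference of -4.60 to 1.20, reversed to 0.0084, 1.20 and 1.13 in 3 fits. The causes were not tested. Of the alternatives for single genes 456 kept the call, 300 lost it and 1 reversed. Depth limits every share of cells, and few genes could be tested after thinning.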

Other observations

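The T cells also held a few cells rich in cytokine transcripts, chosen here after their values were seen. Il13, a type 2 cytokine, had 67 UMIs in 4 cells, of which 64 were in 1 cell of 37C no inhibitor B. That cell had 1510 UMIs, among them 30 of Csf2, 24 of the chemokine Ccl1, 7 of Gata3, the type 2 lineage factor, 2 of Il1rl1, the interleukin-33 receptor, 2 of Cd4 and 9 of the CD3 or receptor chains. Over all T cells Ccl1 had 56 UMIs in 6 cells and Csf2 had 58 UMIs in 8 cells, 7 of them at 37C. Ifng had 19 UMIs in 3 cells, all at 37C, and Il2 had 1 UMI.

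The 17 cells with a Trdc or Tcrg-C UMI stood at 2760 CPM for Nkg7, 1762 for Gzmb and 1409 for Ccl5, and had 0 UMIs of Izumo1r and Klrg1.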
